A study of Arabidopsis thaliana with 6 samples.

Results

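The class V chitinase cluster of Arabidopsis thaliana is a row of 9 genes on chromosome 4 that encode proteins of glycoside hydrolase family 18, and ChiC (AT4G19810) alone among them has a gene symbol other than its locus tag. The members were selected on position beside ChiC, and ChiC itself was chosen by its lower value in YFP-positive than in YFP-negative cells, so the difference of ChiC is described with no test. All 9 genes had a probe set that names them alone, 1 each, among 16550 genes so named on the array. This naming is a property of the annotation. Whether probes of 1 member also bind transcripts of another was not checked, as probe sequences were not at hand. Cotyledons of 6-day-old seedlings that carried SEOR1pro::SEOR1-YFP spent 72 hours in an induction medium that held bikinin, an inhibitor of GSK3-like kinases, at 10 µM, the cytokinin kinetin at 0.25 mg/L and the synthetic auxin 2,4-D at 1.25 mg/L. In this culture system, VISUAL, cells of the leaf turn into vascular cells. Protoplasts were sorted by YFP, and 3 Affymetrix arrays were run on YFP-positive cells, taken as phloem by the design text, and 3 on YFP-negative cells, taken as non-phloem. Both groups came from the same transgenic line and the same medium, so no group stands for uncultured leaf, and the SEOR1 promoter, active in sieve elements, decided the sort. The YFP-negative group holds every cell type of the cultured cotyledon that did not show YFP, and the numbers 1 to 3 in the titles are not said to be separate cultures, so the SDs given may be technical.

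Chitinases cleave chitin, the polymer of N-acetylglucosamine in fungal cell walls and insect cuticles, which plants do not make. Plant chitinases fall into glycoside hydrolase families 18 and 19, whose folds and catalytic mechanisms differ. Class V enzymes belong to family 18, and ChiC has been characterised as a chitinase that acts on chitin oligosaccharides and whose transcript responds to abscisic acid, jasmonate and salt stress. Gene families of this kind often lie in tandem arrays that arose by local duplication, and copies in such arrays can differ in where they are expressed. The question put to the arrays was which of the tandem genes gave a signal, and in which of the sorted populations.

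Values are log2 expression as deposited, made with RMA, and a gene is called dim on an array where it lies under the median of all probe sets of that array. The medians were 2.61, 2.20 and 2.92 in YFP-positive replicates 1 to 3 and 2.55, 2.1 and 2.80 in YFP-negative replicates 1 to 3. Arrays of the same number thus had closer medians than arrays of different numbers. Group means and SDs pool arrays whose values are distributed differently. Probe sets differ in how well they bind, and background was not measured apart from signal, so dim does not mean absent and values of different genes give no order of transcript abundance.

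ChiC was the only member of the cluster above the array median, and it was so on all 6 arrays. It stood at 5.67, 3.63 and 3.81 in YFP-positive replicates 1 to 3, against 9.78, 9.12 and 9.02 in YFP-negative replicates 1 to 3. The groups did not overlap, the YFP-negative arrays lay close together, and YFP-positive replicate 1 was well above the other two YFP-positive arrays. The means were 4.37 ± 1.13 in YFP-positive cells and 9.30 ± 0.42 in YFP-negative cells (SD, n = 3 each), a log2 difference of -4.94. Within replicates 1, 2 and 3 the differences were -4.11, -5.49 and -5.21, so that ChiC was 17.3-fold, 44.8-fold and 36.9-fold lower in YFP-positive cells on the deposited scale.

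Within each array, ChiC took a high place among probe sets in YFP-negative cells. In YFP-positive cells it lay at percentiles 72.5, 64.8 and 58.3 of all probe sets in replicates 1 to 3, and in YFP-negative cells at percentiles 97.6, 96.0 and 94.2. It exceeded the array median by 3.06, 1.43 and 0.89 in YFP-positive replicates 1 to 3, and by 7.23, 7.02 and 6.21 in YFP-negative replicates 1 to 3. ChiC was thus among the brighter probe sets in YFP-negative cells and nearer the array median in YFP-positive cells, closest to it in YFP-positive replicate 3. Since each array holds RNA of many cells, fewer cells with the transcript and less transcript per cell cannot be told apart.

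**Figure D1:**
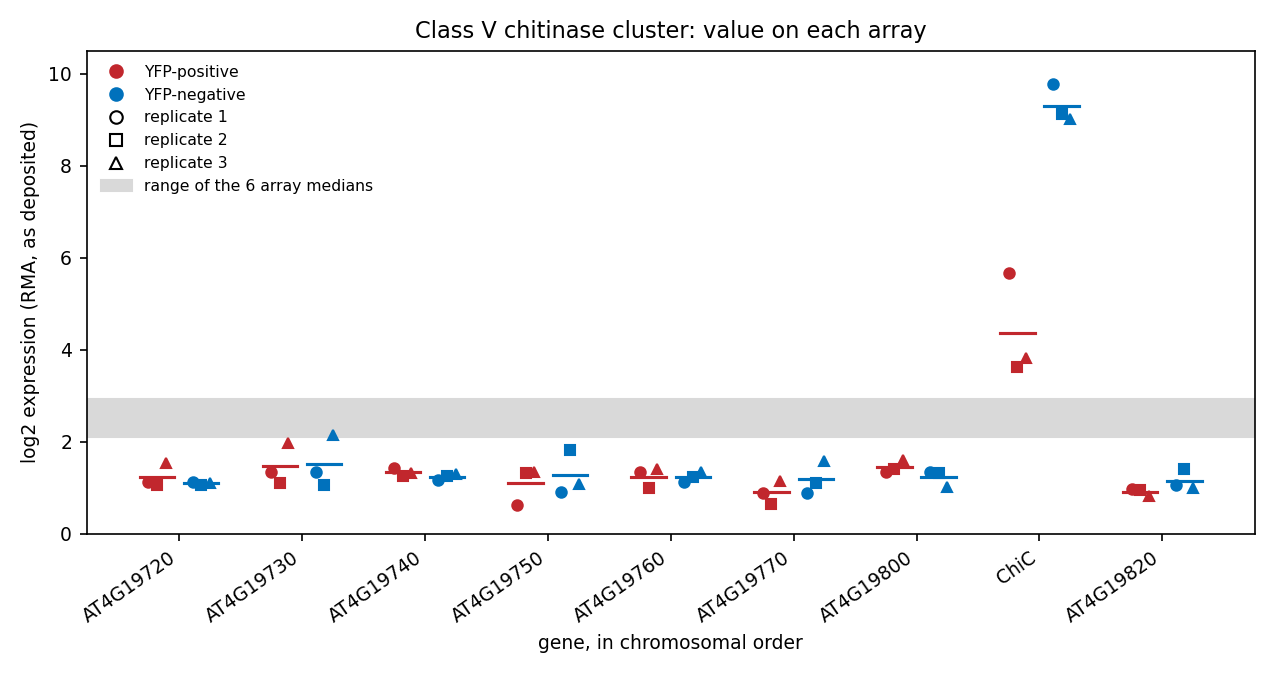
Log2 expression of the 9 genes of the cluster in chromosomal order, with a point for each array (YFP-positive in red, left; YFP-negative in blue, right; marker shape gives the replicate number), a bar for the mean of 3 arrays, and a grey band for the range of the array medians, 2.1 to 2.92. ChiC lies above the band on all 6 arrays and the other 8 genes lie at 0.63 to 2.15.

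The 8 other genes of the cluster were dim on all 6 arrays, in YFP-positive and YFP-negative cells alike. All 48 of their values lay under the median of their array, whereas 36.6% of all genes were dim on all 6 arrays. The values ran from 0.63 to 2.15, with the closest approach to an array median at a margin of 0.29. On each array the brightest of the 8 lay below ChiC, by 1.82 to 4.24 in YFP-positive cells and by 6.86 to 8.45 in YFP-negative cells. These gaps are between different probe sets and are given only to show that ChiC stood apart on every array.

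AT4G19800 and AT4G19820 flank ChiC directly, and neither had a difference near that of ChiC in size. Both were dim on all 6 arrays, and the limit of detection is unknown, so whether they share a smaller change cannot be told. AT4G19800 had 1.33, 1.4 and 1.60 in YFP-positive replicates 1 to 3, against 1.33, 1.31 and 1.02 in YFP-negative replicates 1 to 3. AT4G19820 had 0.97, 0.95 and 0.82 in YFP-positive cells, against 1.06, 1.41 and 0.99 in YFP-negative cells. The groups overlapped for AT4G19800, whose mean difference was 0.22. For AT4G19820 every YFP-positive value lay below every YFP-negative value, as ChiC's did, but by little, with a mean difference of -0.24 and every value at or under percentile 28.9 of its array.

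AT4G19730 and AT4G19750 held the highest values among these 8 genes. AT4G19730 had 1.33, 1.1 and 1.98 in YFP-positive replicates 1 to 3, against 1.33, 1.05 and 2.15 in YFP-negative replicates 1 to 3, so that both arrays of number 3 were its highest. AT4G19750 had 0.63, 1.32 and 1.33 in YFP-positive cells, against 0.91, 1.81 and 1.08 in YFP-negative cells. Its highest array was YFP-negative replicate 2, at percentile 43.2, and the groups of both genes overlapped. Their mean differences were -0.04 for AT4G19730 and -0.17 for AT4G19750.

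AT4G19720, at the end of the row farthest from ChiC, had 1.13, 1.06 and 1.53 in YFP-positive replicates 1 to 3, against 1.13, 1.06 and 1.11 in YFP-negative replicates 1 to 3. Its 2 values of number 1 were exactly equal, as were its 2 values of number 2, so that its whole mean difference of 0.14 came from number 3. AT4G19740 ranged over 0.26 in all, between 1.17 and 1.43, AT4G19760 lay between 0.98 and 1.41, and AT4G19770 between 0.64 and 1.57. The mean differences of these 3 genes were 0.09, 0.01 and -0.29. Of the 8 genes 4 had a positive and 4 a negative difference, from -0.29 to 0.22, with a median of -0.01, and over all 16550 genes the median was -0.04. No difference within a replicate number exceeded 0.59 in size.

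Many of these low values were shared with other probe sets of the same array. In number 1 the values of YFP-positive and YFP-negative cells were exactly equal (tolerance 0) for 4 of the 8 genes, in number 2 for 2 of them and in number 3 for 0. The value of AT4G19720 in YFP-positive replicate 1 was shared by 3178 probe sets of that array, and that in YFP-negative replicate 1 by 3220. In all, 28 of the 48 values were held by more than 1 probe set of their array, and each of the 6 ChiC values was held by ChiC alone. Of the 6 values of AT4G19820, that in YFP-positive replicate 3 was held by 12 probe sets, and those in YFP-negative replicates 2 and 3 by 2 and by 3.

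Across all genes, 1.08% differed between YFP-positive and YFP-negative cells in limma at an adjusted p under 0.05, and 0.224% were lower in YFP-positive cells. Of the genes called, 142 were higher and 37 lower, or 265 and 119 after the median of each array was subtracted. Of the 8 genes beside ChiC 0 passed in limma and 0 had an unadjusted p under 0.05, against 7.96% of all genes. The fit with the replicate number as a block also gave 0 and 0, where 90 of 16550 genes passed and 2279 had such a p. ChiC was among the 37 lower genes, which repeats how it was chosen. For 4.34% of all genes the YFP-positive values lay wholly below the YFP-negative values, and in the cluster this held for 2 genes, ChiC and AT4G19820. As the members were set around a gene chosen on this contrast, nothing is read from these counts.

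None of the measured genes around the cluster was lower in YFP-positive cells to an extent near that of ChiC. By the order of genes in the TAIR10.1 annotation, 10 entries on each side of the cluster and 2 pseudogenes within it, AT4G19780 and AT4G19790, were looked up, and 9 of these 22 had a named probe set, 2 before the cluster and 7 after it. Of the 9 genes 5 were above the array median on all 6 arrays, 2 were dim on all 6, and 2 were mixed. In limma 0 of the 9 passed, against 1.08% of all genes, and 0 had an unadjusted p under 0.05, against 7.96%. With the replicate block 0 passed, against 90 of 16550 genes, and 2 had an unadjusted p under 0.05, against 2279 of 16550. The groups overlapped for each of the 9, whereas 9.3% of all genes had groups that did not overlap. Their mean differences ran from -0.47 to 1.77.

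AT4G19830, the nearest gene after AT4G19820, encodes a peptidyl-prolyl isomerase of the FKBP type. It had 7.19, 6.76 and 7.89 in YFP-positive replicates 1 to 3, against 6.18, 5.83 and 6.91 in YFP-negative replicates 1 to 3. Its difference was positive in each replicate number, 1.01, 0.92 and 0.98, the opposite direction from ChiC, but it did not pass over all genes (adjusted p = 0.697 in limma, 0.0905 with the replicate block, where the SE was 0.13). AT4G19870, a kelch repeat gene, had the largest difference in the flanks, 1.77, with 5.47, 4.26 and 4.92 in YFP-positive cells, against 5.13, 1.97 and 2.22 in YFP-negative cells. AT4G19860, a gene of the lecithin:cholesterol acyltransferase family, was bright in both groups, at 9.57 ± 0.45 in YFP-positive cells and 9.08 ± 0.58 in YFP-negative cells (SD, n = 3 each). Bright genes in both populations and dim chitinase genes thus lay within a few places of ChiC.

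**Figure D2:**
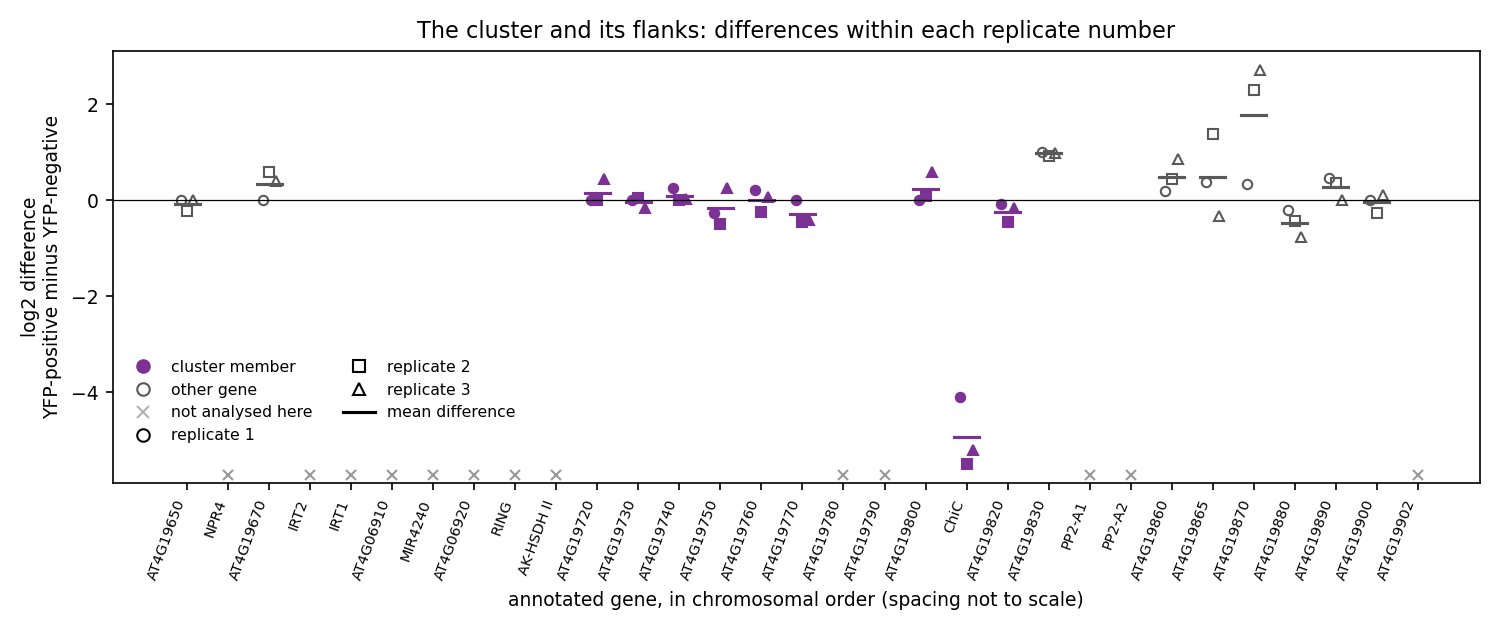
Log2 difference, YFP-positive minus YFP-negative, within each replicate number (points) and for the means (bars), for the 9 cluster genes (filled) and the other genes of the region (open), in chromosomal order with even spacing. Crosses at the bottom mark genes not analysed here; ChiC lies at -4.11 to -5.49 and every other gene shown lies between -0.76 and 2.70.

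The 5 genes whose profile over the 6 arrays was closest to that of ChiC came from elsewhere in the genome. Likeness was measured as the root mean square distance in log2 units after each gene was centred on its own mean, and the median distance over the 16541 genes outside the cluster was 2.58. The distances were 0.48 for AT1G22900, a dirigent-like gene, 0.61 for PDF1.4, a gene of the plant defensin family, and 0.62 for both AT4G14746 and AT1G30720, the second a berberine bridge enzyme-like gene. AT5G44380, another berberine bridge enzyme-like gene, followed at 0.64. Pearson's r with ChiC over 6 arrays was 0.97 to 0.99 for these genes, which restates the choice. The 8 other cluster genes lay at distances of 2.45 to 2.68, close to the median of all genes. Profiles were centred but not scaled, so any gene that varies little lies near such a distance whatever its pattern. Nothing is therefore read from these distances. Pearson's r of the 8 with ChiC ran from -0.66 for AT4G19800 to 0.65 for AT4G19820.

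In each of the 5 genes YFP-positive replicate 1 was the highest of the YFP-positive arrays, as in ChiC. They were chosen for likeness to ChiC on these same arrays, so this restates the choice. AT1G22900 had 4.23, 2.37 and 2.37 in YFP-positive replicates 1 to 3, against 8.24, 8.87 and 8.38 in YFP-negative replicates 1 to 3. PDF1.4 had 5.81, 4.62 and 4.42 in YFP-positive cells, against 8.88, 8.82 and 8.96 in YFP-negative cells. The groups did not overlap in any of the 5, which the choice by likeness also brings with it. The 37 genes lower in YFP-positive cells had median differences of -2.31, -3.48 and -3.66 within numbers 1, 2 and 3, so that the smaller difference in number 1 was not confined to ChiC. Whether YFP-negative cells or their RNA were carried into YFP-positive replicate 1 was not tested.

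**Figure D3:**
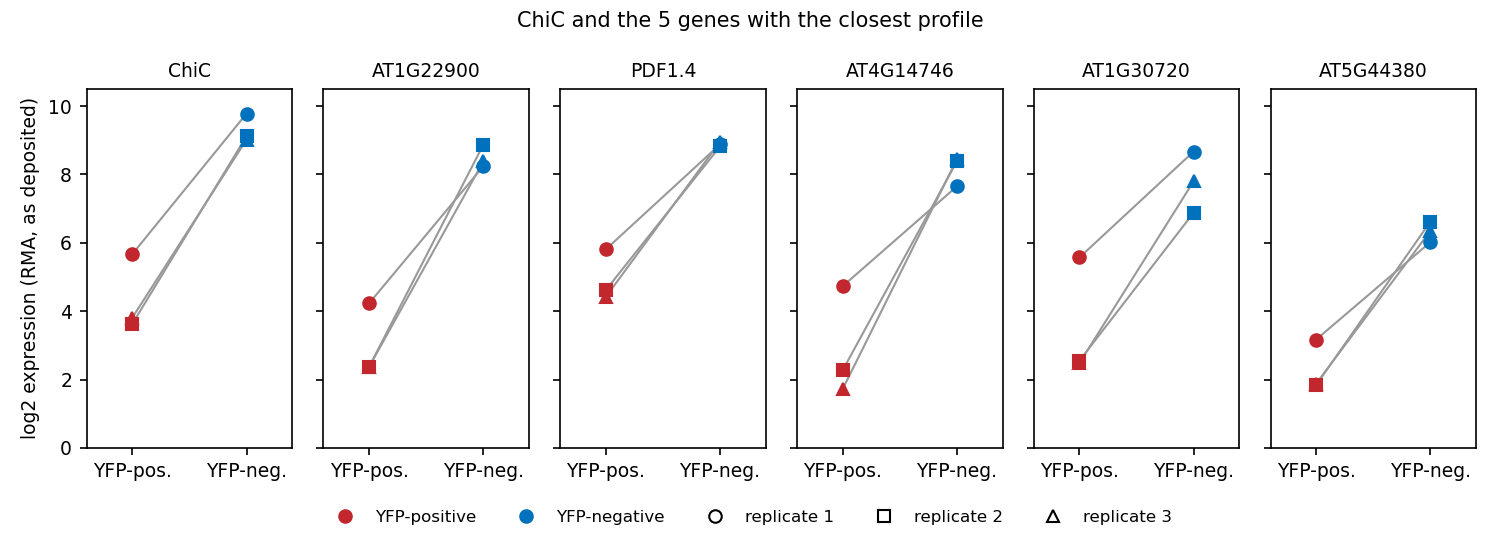
Log2 expression of ChiC and of the 5 genes with the smallest distance to its centred profile, YFP-positive (red, left) and YFP-negative (blue, right), with arrays of the same replicate number joined by a line. In all 6 genes the highest YFP-positive point is replicate 1 and lies below every YFP-negative point, which restates the choice of the 5 by likeness to ChiC.

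The remaining chitinases measured belong to family 19, whose enzymes act on the same polymer with another fold; CHIA, a class III chitinase gene of family 18 outside the cluster, was not analysed here. Of 14 listed genes of that family and its chitinase-like relatives 9 had a named probe set, and 0 passed in limma over all genes as deposited, while 5 of the 9 had an unadjusted p under 0.05, against 7.96% of all genes. AT2G43620 and AT2G43590 passed in 3 and 4 of the 13 alternatives, among them the filter on dim genes, which adjusts over 10491 genes only. The differences of the family 19 genes were negative in 8 of 9, with a median of -2.24 and a range from -4.97 to 0.07, beside the median of -0.04 over all genes. The groups did not overlap in 5 of the 9, against 9.3% of all genes. The list was chosen with earlier results of these data known, and most of the 9 lie in a single tandem row. Nothing is therefore read from these counts beside the shares of all genes. Of the 9 genes 3 were above the array median on all arrays, 2 were dim on all arrays, and 4 were mixed. A difference between the families in this respect was not tested.

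AT2G43620 had the smallest p of the 9. It stood at 6.13, 3.83 and 2.49 in YFP-positive replicates 1 to 3, against 9.21, 8.05 and 10.10 in YFP-negative replicates 1 to 3, and its log2 difference of -4.97 (SE 1.0) did not pass in limma (adjusted p = 0.113, or 0.161 with the replicate block). It passed with median centring (0.0281), with the filter on dim genes (0.0242) and with a variance trend (0.01), within a range of 0.01 to 0.368 over the settings run. It is 1 of a tandem row of 6 measured family 19 genes on chromosome 2, AT2G43570 to AT2G43620. CHI (AT2G43570) and AT2G43600 from this row, named after their values were seen, show its spread. CHI had 9.42, 6.94 and 7.46 in YFP-positive cells, against 11.06, 10.10 and 10.06 in YFP-negative cells. AT2G43600 lay between 0.89 and 1.25 on all 6 arrays. In this row CHI alone was above the array median on all 6 arrays, AT2G43600 alone was dim on all 6, and the other measured genes were mixed.

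Genes that act in chitin perception and response were thinly covered. Of 16 listed genes of perception and signalling 2 were measured, and neither passed. AT5G18610, which encodes the receptor-like cytoplasmic kinase PBL27 that acts after the chitin receptor, had a difference of -0.51, and BIK1, a related immune kinase, lay between 8.94 and 10.27 on all arrays with a difference of 0.04. Of 9 listed chitin-responsive regulators 3 were measured, and WRKY29 passed with the block alone among the settings run, the other two in no setting. The transcription factor gene WRKY29 had 5.93, 3.07 and 2.25 in YFP-positive replicates 1 to 3, against 8.37, 6.02 and 5.03 in YFP-negative replicates 1 to 3. The groups overlapped, but within each number the YFP-positive value was lower, by -2.44, -2.95 and -2.78, and the adjusted p was 0.722 in limma and 0.0444 with the replicate block.

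Among pathogenesis-related proteins 3 of 9 listed genes were measured, and 0 passed in limma on the values as deposited. OSM34, an osmotin-like protein gene of the thaumatin family, had 3.79, 1.77 and 4.48 in YFP-positive replicates 1 to 3, against 7.35, 6.35 and 8.82 in YFP-negative replicates 1 to 3. The groups did not overlap, with a difference of -4.16 (SE 0.90) and an adjusted p of 0.137 in limma. It passed with the block (0.0444), quantile normalization (0.0497), median centring (0.0138), the filter on dim genes (0.0369) and a variance trend (0.029), and its adjusted p ran from 0.0138 to 0.331 over the settings run. The defensin genes PDF1.2 and PDF1.2b had differences of -0.08 and -0.23. Of 12 listed genes of abscisic acid, jasmonate and salt response, the signals known to induce ChiC, 2 were measured. COR15A, a cold- and abscisic acid-induced gene, had 2.12, 2.68 and 1.37 in YFP-positive cells, against 4.61, 4.03 and 4.82 in YFP-negative cells, and its difference of -2.43 (SE 0.42) failed the threshold in limma at an adjusted p of 0.0682, and of 0.144 with the block, and met it with median centring alone (0.0498). KIN1 had a difference of -0.77.

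**Figure D4:**
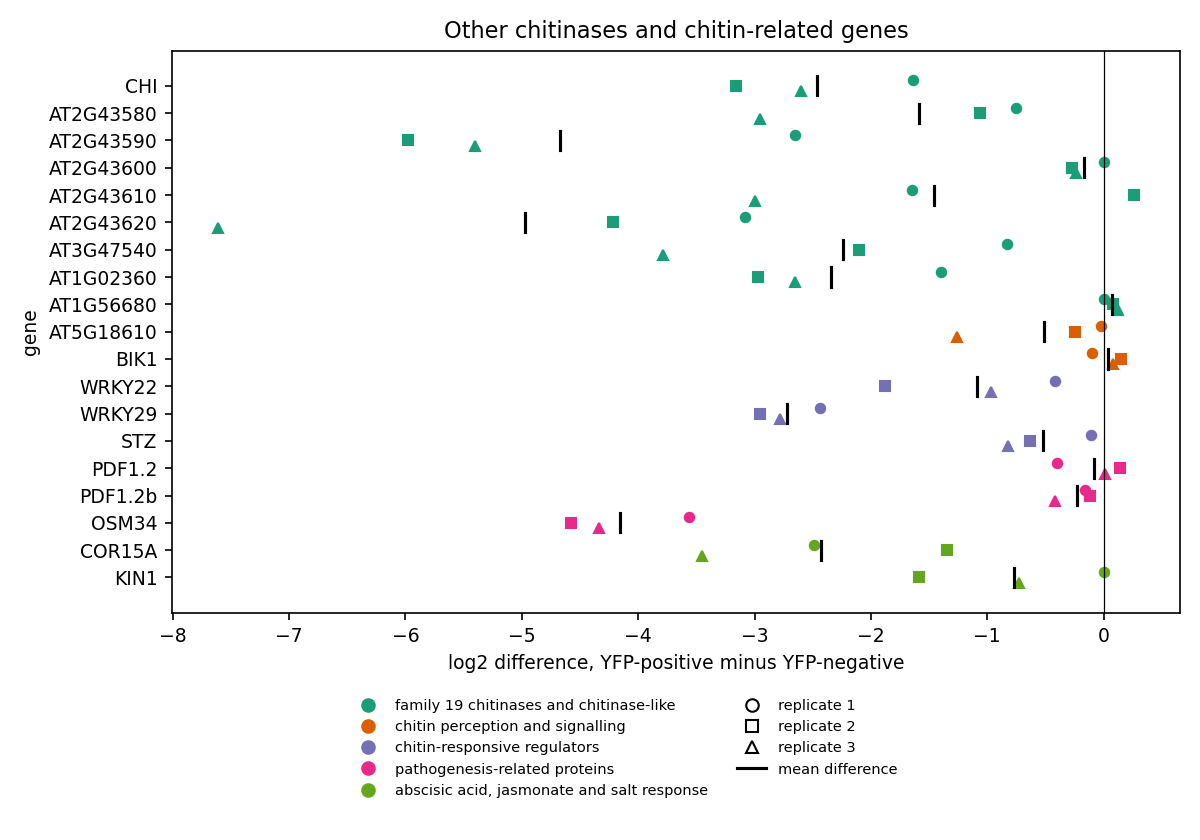
Log2 difference, YFP-positive minus YFP-negative, within each replicate number (points) and for the means (black bars) in family 19 chitinases, chitin perception and response genes, pathogenesis-related proteins and hormone response genes. The means run from -4.97 for AT2G43620 to 0.07 for AT1G56680. Of the 19 genes 0 passed in limma on the values as deposited without the replicate block, and 5 passed in at least 1 alternative. Over all 16550 genes, 37 passed without YFP-positive replicate 3 and 384 with median centring. The share of all genes that passed in at least 1 alternative is not given. The lists were chosen with earlier results known, so nothing is read from the 5.

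How well the sort parted the populations could be read from few markers. SEOR1 was not analysed here. Of 8 listed sieve element and early phloem genes 2 were measured, the protophloem peptide gene CLE45 with a difference of 2.15 (SE 0.41, adjusted p = 0.0951 in limma, 0.0444 with the block, 0.0205 with quantile normalization, 0.0193 with median centring) and OPS with 0.73. CLE45 had 4.4, 3.47 and 4.56 in YFP-positive replicates 1 to 3, against 2.20, 1.44 and 2.34 in YFP-negative replicates 1 to 3. Of 5 mesophyll genes 1 was measured, RCA, the Rubisco activase gene, at 4.57 to 5.02 in YFP-positive cells and 5.15 to 6.06 in YFP-negative cells. Its difference of -0.71 did not pass in limma (adjusted p = 0.754) or in any alternative. Of 3 genes of epidermis and guard cells 1 was measured, FMA (FAMA), with a difference of -1.17. Within replicates 1 to 3 the differences of FMA were 0.0, -0.41 and -3.09, so its mean difference came mainly from number 3. FMA was dim on 5 arrays, and its groups overlapped. Markers of companion cells, xylem and cambium were not analysed here. Which cells of the YFP-negative gate carried ChiC, and the part of other cell types in its difference, were not tested.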

How the data were processed

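The authors deposited 1 table of log2 values for 38408 probe sets on 6 arrays, which the submitters' processing notes credit to RMA; version, settings and genome build: not given in the sources used here. Their range, -0.11 to 13.39, is that of a log2 scale. Per the labels' protocols, RNA was amplified (NuGEN Ovation) and labelled with biotin. Values were used as deposited. Genes were named through the platform's annotation: 16722 probe sets had 1 gene, 759 several and 20927 were not named here. Symbols were updated by gene ID through RefSeq (TAIR10.1), where 16411 of 16550 genes matched. Of several probe sets for 1 gene, that of the highest mean was used.

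Differences were fitted as YFP-positive minus YFP-negative with limma 3.58.1 in R 4.3.3 (lmFit, eBayes). Two-sided p-values were adjusted over 16550 genes by Benjamini-Hochberg at a threshold of 0.05. The code of the fit was run on simulated data with independent arrays and a common SD. That run does not cover arrays paired by number, unequal SDs or tied low values. Arrays of the same number in the titles deviated together from their group means across genes, at correlations of 0.66, 0.61 and 0.49 for numbers 1 to 3. The numbers were therefore taken as pairs, and a fit with the number as a block was run beside the main one. Arrays of 1 number also shared exactly equal low values and close medians. Whether shared cultures or processing by number gave the correlations was not tested. The members and gene lists were chosen with earlier results of these data known. Named were all 9 members; in each list the 3 genes with the largest difference among those that passed or, with none, the gene with the smallest p; the 3 flanking genes with the largest difference; and the 5 genes closest to ChiC. Other genes, such as CHI, BIK1, PDF1.2 and KIN1, were named after their values were seen. The number of arrays limits the precision.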

Additional observations from a re-analysis of the deposited data

How the results depend on the processing

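The difference of ChiC stayed negative in all 13 alternatives, between -5.58 without YFP-positive replicate 1 and -4.57 without YFP-positive replicate 2, and came to -5.0 after quantile normalization and to -5.03 after median centring. The 8 other members were dim on all arrays under quantile normalization, without any 1 array, without both arrays of number 2, and with the 60th percentile or the median of named genes in place of the array median; with the 40th percentile 6 were, as AT4G19730 and AT4G19750 exceeded it on 1 array each. This count and its alternatives were chosen after seeing the data. Their differences ran from -0.44 to 0.29 over 96 values, of which 1 moved by 1 SD or more, and no value was possible with the filter on dim genes, which removes all 8. The number of genes called, 179, was 90 with the replicate block (82 higher and 8 lower, with 63 shared). It was 250 with quantile normalization, 384 with median centring, 330 with the filter on dim genes and 307 with a variance trend. It was 126 without both arrays of number 2, and 37 to 164 without 1 array. No lower gene was called without YFP-positive replicate 3 or YFP-negative replicate 3 (limma gave 404 and 464 lower genes at an unadjusted p under 0.05). It was 81, 94, 37 and 38 without YFP-positive replicates 1, 2 and 3 and YFP-negative replicate 3. Of the listed genes 0 were called, against 3 with the block (WRKY29, OSM34, CLE45), 2 with quantile normalization (CLE45, OSM34), 5 with median centring (these and COR15A, AT2G43590, AT2G43620), and 3 each with the filter and with the trend (AT2G43590, AT2G43620, OSM34), and 0 to 1 without 1 array, the 1 being AT2G43590 without YFP-positive replicate 1. The block changed no other call of a listed gene, and the causes of these changes were not tested. The totals over all genes also changed with the setting, so nothing is read from the counts of listed genes. Background was not measured apart from signal, so the limit of detection for the 8 dim genes is unknown.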
